A study of Mus musculus with 21 samples.

Results

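The 9 genes described here code for neurotrophins, for GDNF family receptors and for the receptors of both families. They were chosen by their symbols, with earlier results of these data known, among the 35266 genes counted in AGRP and POMC neurons of the mouse hypothalamic arcuate nucleus (ARC). They comprise the ligands Bdnf and Ntf3, the shared neurotrophin receptor Ngfr (p75), the receptor tyrosine kinases Ntrk2 (TrkB), Ntrk3 (TrkC) and Ret, and the GDNF co-receptors Gfra1, Gfra2 and Gfra4. Each of the 21 libraries was made from fluorescent neurons picked by hand from 1 male mouse on a C57BL/6J background at postnatal day 46 to 56. AGRP neurons came from NPY-hrGFP mice (5 fed and 6 food deprived) and POMC neurons from Pomc-GFP mice (5 fed and 5 food deprived). All mice spent the last 24 hr before sorting alone in a fresh cage, the food-deprived (FD) mice with water but no food and the fed mice with food at will, so both conditions carry the cage change. The label is a fluorescent protein under Npy or Pomc control, so that AGRP neurons were picked by Npy and not by Agrp, and reporter line and cell type cannot be told apart.

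Neurotrophins are secreted proteins that bind Trk receptor tyrosine kinases and, as a shared receptor, p75. BDNF acts through TrkB, and in the hypothalamus this signal is known to restrain food intake. Ligands of the GDNF family bind a GFRα protein held to the membrane by a lipid anchor, and the complex then engages the kinase RET. GFRα1 prefers GDNF, GFRα2 neurturin and GFRα4 persephin.

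Libraries held 9822298 to 37663979 gene counts (median 19189780) from 44 to 214 sorted cells, and FD AGRP neurons had the widest range of depth (13421226 to 37663979). A count of 3, taken as the floor, equals 0.0797 to 0.305 CPM (the count scaled by the library's total). The neuropeptides matched the labels: summed Agrp and Npy reached 12064 to 23682 TPM (a share of transcripts per length) in fed and 27249 to 68921 TPM in FD AGRP neurons, against 5.45 to 226 TPM in POMC neurons, and summed Pomc and Cartpt was 8809 to 37160 TPM in POMC neurons against 114 to 227 TPM in AGRP neurons. Astrocyte markers (Gfap, Aqp4, Aldh1l1, Slc1a3, Gja1) summed to 0.329 to 14.5 TPM in any library. Genes listed as markers of other arcuate neurons summed to 443 to 2347 TPM in AGRP and 117 to 334 TPM in POMC neurons. These sums were mostly Sst in AGRP neurons and mostly Slc17a6 in POMC neurons (means of 131 TPM fed and 149 TPM FD). Whether these transcripts came from the AGRP and POMC neurons themselves or from other cells was not tested. POMC mice were all aged 51 days or more, whereas the AGRP mice included a younger cohort, and among POMC libraries the 10 µl spike-in volume was used only for FD mice and a volume set by cell number only for fed mice.

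The upstream sequences of Gfra1 and Ntrk2 are shown because these were the members called different after food deprivation. The 250 bases before each start site are from RefSeq (GRCm38.p6, the same assembly as mm10), which held 14 entries for 6 of the 9 members and none for Ret, Ntrk3 and Gfra2. Both sequences run 5′ to 3′ on the gene's strand with CpG dinucleotides in capitals, Gfra1 at chr19:58455399-58455648 on the minus strand and Ntrk2 at chr13:58806319-58806568 on the plus strand.
Gfra1: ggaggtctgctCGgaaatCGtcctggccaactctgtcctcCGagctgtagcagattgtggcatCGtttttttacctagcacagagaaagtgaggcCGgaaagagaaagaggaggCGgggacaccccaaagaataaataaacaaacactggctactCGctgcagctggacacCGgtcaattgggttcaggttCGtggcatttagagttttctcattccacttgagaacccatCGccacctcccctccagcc
Ntrk2: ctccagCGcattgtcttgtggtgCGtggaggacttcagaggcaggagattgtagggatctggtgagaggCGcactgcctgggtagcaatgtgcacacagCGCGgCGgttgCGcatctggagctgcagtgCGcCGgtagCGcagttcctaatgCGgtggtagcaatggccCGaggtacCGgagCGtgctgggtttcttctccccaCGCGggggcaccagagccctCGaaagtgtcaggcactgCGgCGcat
The Gfra1 sequence held 10 CpG and 52.4% G or C and the Ntrk2 sequence 19 CpG and 62.8%, against medians of 6 CpG and 52.4% over all 32851 entries. Neither held, on either strand, the full cAMP response element TGACGTCA (in 1.55% of all entries), its short form TGACG, which the full element contains (17.8%), the AP-1 motif TGACTCA (4.46%), the E-box CACGTG (6.02%), the GC box GGGCGG (32.7%) or the TATA box TATAAA (12.4%). Among the 7 Bdnf entries, 1 held the short element TGACG.

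**Figure D1:**
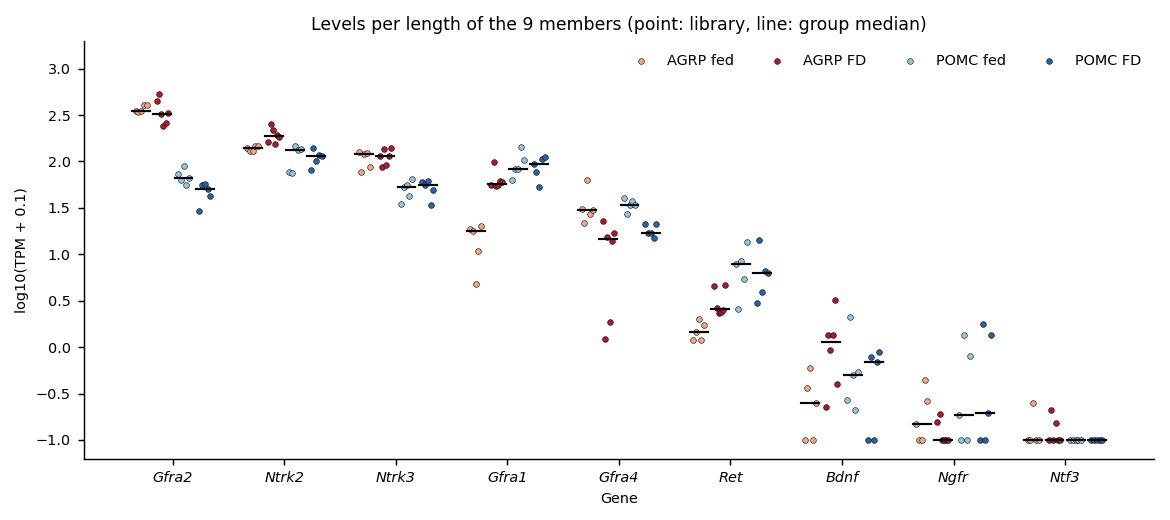
Levels per length of the 9 members as log10(TPM + 0.1) on the vertical axis, with 1 point for each library, colours for the 4 groups and a line at the group median. Gfra2, Ntrk2 and Ntrk3 lead in AGRP neurons, whereas Bdnf, Ngfr and Ntf3 lie near the bottom in every group.

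Receptors, not ligands, made up nearly all of the signal. In fed AGRP neurons the mean levels per length ran from Gfra2 (370 ± 32.4 TPM, SD, n = 5) through Ntrk2 (138 ± 7.51 TPM), Ntrk3 (107 ± 22.3 TPM), Gfra4 (34.4 ± 16.3 TPM) and Gfra1 (14.3 ± 6.46 TPM) to Ret (1.42 ± 0.352 TPM). No neighbours in this order overlapped between libraries. In FD AGRP neurons the same 3 genes led, Gfra2 at 355 ± 113 TPM (n = 6), Ntrk2 at 194 ± 36.4 TPM and Ntrk3 at 114 ± 21.3 TPM, but Gfra1 (64.3 ± 17.3 TPM) now stood above Gfra4 (11.9 ± 8.60 TPM) in 6 of 6 libraries, as against 0 of 5 fed libraries.

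In POMC neurons the order was flatter. Fed POMC neurons had Ntrk2 at 113 ± 34.2 TPM (n = 5), Gfra1 at 95.4 ± 30.7 TPM, Gfra2 at 69.2 ± 12.4 TPM and Ntrk3 at 50.4 ± 12.0 TPM, and the ranges of neighbouring genes overlapped from Ntrk2 down to Gfra4 (34.4 ± 4.85 TPM). Ret reached 7.51 ± 4.08 TPM in fed and 6.75 ± 4.42 TPM in FD POMC neurons. In FD POMC neurons Ntrk2 (110 ± 20.8 TPM) and Gfra1 (88.5 ± 23.7 TPM) again overlapped, as did Ntrk3 (51.9 ± 11.0 TPM) and Gfra2 (46.9 ± 11.5 TPM).

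The ligands were close to the limit of counting. Bdnf, on chromosome 2 (109674699-109727007, plus strand, mm10), held 0 to 129 counts a library, with means of 0.180 ± 0.205 TPM in fed AGRP, 1.14 ± 1.08 TPM in FD AGRP, 0.623 ± 0.779 TPM in fed POMC and 0.409 ± 0.379 TPM in FD POMC neurons. Ntf3, which codes for neurotrophin-3, the main ligand of TrkC (chromosome 6, 126101412-126166744, minus strand), never exceeded 1 count, missed the filter of 1 CPM in at least 3 libraries and was not tested. Ngfr (chromosome 11, 95568817-95587735, minus strand) held 0 to 36 counts, and more than 3 counts were found in 1 of 11 AGRP libraries and in 4 of 10 POMC libraries. Ngfr passed the count filter only through 3 POMC libraries and passed the test in none of the 5 comparisons (q from 0.106 to 0.947), and at these levels a difference in Ntf3 was not detectable.

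**Figure D2:**
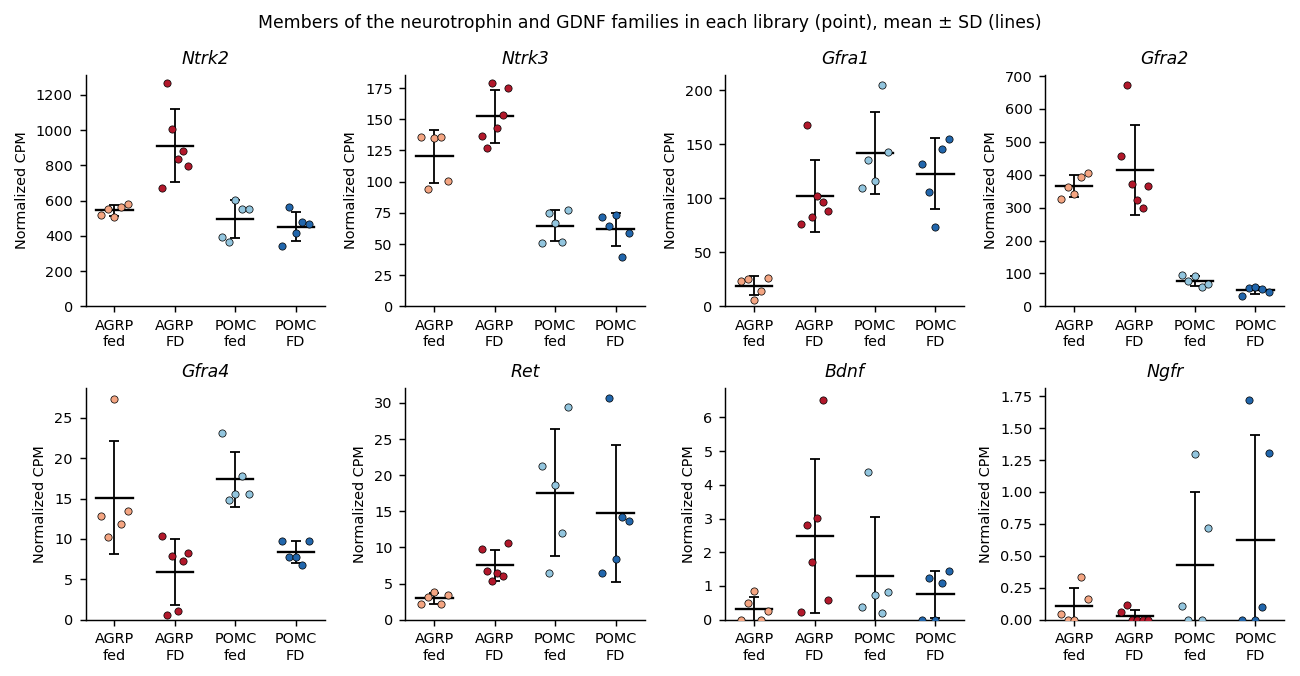
Normalized CPM (vertical axes, each starting at 0) of the 8 tested members, with 1 point for each library and lines at the mean ± SD of each of the 4 groups on the horizontal axis. The FD AGRP libraries lie above all fed AGRP libraries for Ntrk2, Gfra1 and Ret, and the FD POMC libraries lie below all fed POMC libraries for Gfra4.

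The effect of food deprivation was tested in each cell type on counts normalized for library size (normalized CPM), with q the p-value of edgeR's quasi-likelihood test adjusted by the Benjamini-Hochberg method over the 16513 genes tested. In AGRP neurons 2 of the 8 tested members changed, Gfra1 and Ntrk2, and both rose. Of all genes tested, 10.3% were called at q under 0.05, 5.87% higher and 4.43% lower. The median log2 fold change of the 8 members was 0.54, against -0.02 over all tested genes. A stricter rule from the study's methods, which used it on limma-voom results, was applied here to the edgeR results. It also asks for a change of over 1 on the log2 scale in either direction and for a group with a mean above 20 CPM. With edgeR it called 1 member, Gfra1, and 4.46% of all genes.

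Gfra1, the co-receptor for GDNF (chromosome 19, 58235603-58455398, minus strand, mm10), had 6.03, 14.0, 23.4, 25.2 and 26.5 normalized CPM in the fed AGRP libraries and 76.5, 82.7, 87.7, 96.8, 102 and 168 in the FD libraries. All 6 FD libraries thus stood above all 5 fed libraries. The means were 19.03 ± 8.77 and 102 ± 33.4 normalized CPM, a 5.37-fold rise (log2 fold change 2.42 ± 0.30 SE, q = 2.00e-06). In pooled sorted cells, a larger number of expressing cells and more RNA per cell cannot be told apart. With any single library left out the log2 fold change lay between 2.20 and 2.57 and q stayed at or below 2.43e-05. Within the older cohort (3 FD, 3 fed) the log2 ratio of the means was 2.38, and within the younger (3 FD, 2 fed) it was 2.42.

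Ntrk2, the receptor kinase for BDNF (chromosome 13, 58806595-59133970, plus strand), had 505, 519, 554, 564 and 579 normalized CPM in the fed AGRP libraries and 673, 799, 835, 884, 1005 and 1269 in the FD libraries. The 6 FD libraries again stood above all 5 fed ones, but the gap was smaller than for Gfra1. The means were 544 ± 31.3 and 911 ± 206 normalized CPM, a 1.67-fold rise (log2 fold change 0.74 ± 0.16 SE, q = 0.00196). Leaving out any library gave log2 fold changes of 0.63 to 0.82 with q of 6.58e-04 to 0.0081, and the log2 ratio was 0.68 within the older and 0.78 within the younger cohort. Scaling to the ERCC spike-ins kept the direction but ended both calls, with log2 fold changes of 2.14 ± 0.81 SE (q = 0.318) for Gfra1 and 0.69 ± 0.75 SE (q = 1) for Ntrk2, and of all 16513 genes it called 97. GENCODE lists 10 transcripts for Ntrk2, 7 of them protein coding, and gene counts do not separate the full-length kinase from the truncated forms of TrkB that lack it.

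Astrocytes also express truncated TrkB, so their markers are given beside this rise. Summed over the 5 astrocyte markers, levels were 1.73 to 8.92 TPM in fed and 1.60 to 14.5 TPM in FD AGRP neurons, with medians of 6.87 and 5.01 TPM. Of the 5 markers, 1 rose in FD AGRP neurons, as did 5.87% of all genes. This was Aldh1l1, with means of 0.0312 normalized CPM in fed and 2.26 in FD AGRP neurons (q = 0.0284). It lay at or under 3 counts in every fed AGRP library. Gfap, Aqp4, Slc1a3 and Gja1 did not pass the test. The part of these cells in the Ntrk2 change was not tested.

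**Figure D3:**
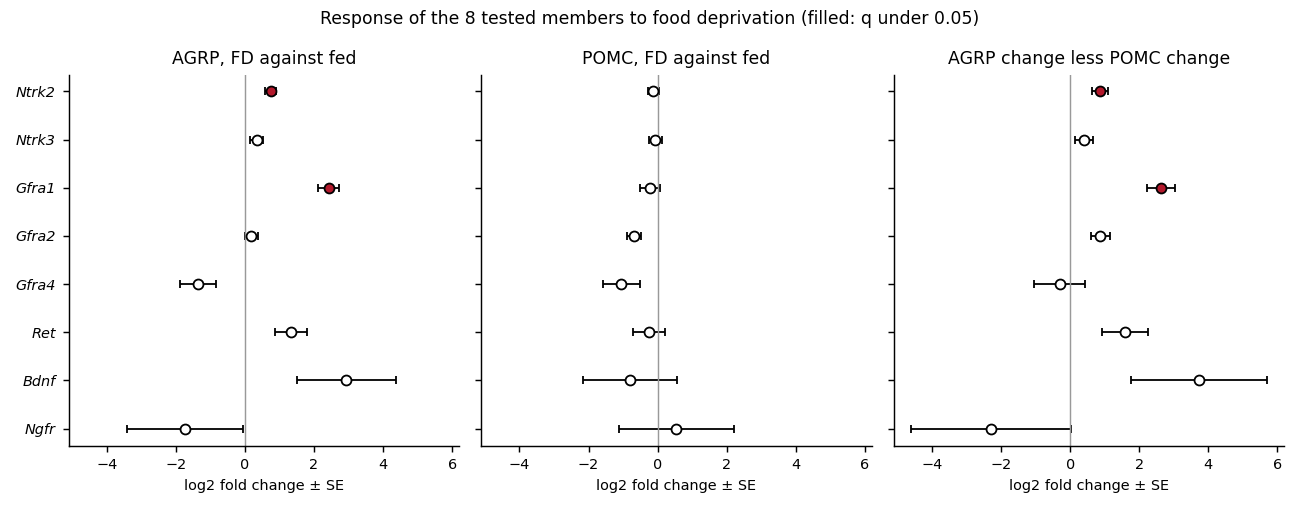
Log2 fold change ± SE (horizontal axis) of each of the 8 tested members for FD against fed AGRP neurons, FD against fed POMC neurons and the difference between these changes, with filled points at q under 0.05. Ntrk2 and Gfra1 are filled for AGRP neurons and for the difference, and none is filled for POMC neurons.

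Ret, the signalling kinase of the GDNF family (chromosome 6, 118151747-118197744, minus strand), was also without overlap but missed the threshold. It had 2.20, 2.23, 3.08, 3.48 and 3.897 normalized CPM in the fed AGRP libraries and 5.41, 5.98, 6.51, 6.73, 9.80 and 10.7 in the FD libraries, with means of 2.98 ± 0.755 and 7.51 ± 2.17 (log2 fold change 1.33 ± 0.47 SE, q = 0.0675). With DESeq2 the same contrast gave q = 0.0213, and with limma-voom q = 0.229. Ret, Gfra1 and Ntrk2 were the 3 of 8 members whose AGRP libraries did not overlap between conditions, compared with 7.65% of all genes tested.

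The other members did not pass the test in AGRP neurons. Gfra4 (chromosome 2, 131039631-131043088, minus strand) had 10.2, 11.8, 12.8, 13.4 and 27.4 normalized CPM in fed libraries and 0.633, 1.06, 7.24, 7.83, 8.27 and 10.4 in FD libraries, overlapping only at 10.2 and 10.4 (log2 fold change -1.36 ± 0.51 SE, q = 0.0918). This contrast passed with limma-voom (q = 0.0124) and with DESeq2 (q = 0.0441). Gfra2 (chromosome 14, 70890129-70979838, plus strand) ranged from 325 to 405 normalized CPM in fed and from 300 to 673 in FD libraries (log2 fold change 0.18 ± 0.19 SE, q = 0.641). Ntrk3 (chromosome 7, 78192361-78578408, minus strand) ranged from 94.2 to 136 and from 127 to 179 normalized CPM (log2 fold change 0.34 ± 0.18 SE, q = 0.28).

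Bdnf had the largest fitted change of the members in FD AGRP neurons and also a wide error. Its counts were 0, 0, 5, 9 and 14 in the fed AGRP libraries and 4, 8, 28, 49, 99 and 129 in the FD libraries. The log2 fold change was 2.93 ± 1.43 SE (q = 0.224), with ranges that overlapped in normalized CPM (0 to 0.852 fed, 0.231 to 6.53 FD). Ngfr had 0 to 7 counts in fed and 0 to 2 counts in FD AGRP libraries, most of them at or under the floor, and no fold is given.

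In POMC neurons 0 of the 8 tested members were called, and 0.375% of all genes were. Gfra2 was the 1 member with an unadjusted p under 0.05 in edgeR, and the share of all genes under that rule is not given here. Limma-voom and DESeq2 also called 0 members, where they called 73 and 382 of all 16513 genes. The median log2 fold change of the members was -0.23, against -0.02 for all tested genes. Gfra1 (109.6, 116, 135, 143 and 204 normalized CPM fed, 73.8, 106, 132, 146 and 155 FD) had overlapping ranges, with a log2 fold change of -0.21 ± 0.29 SE (q = 0.848). Ntrk2 ranged from 364 to 605 normalized CPM in fed and from 341 to 561 in FD POMC libraries (log2 fold change -0.12 ± 0.16 SE, q = 0.839).

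The lowest p of the POMC members was that of Gfra2, with 58.7, 68.0, 77.0, 91.9 and 94.0 normalized CPM in fed and 30.6, 43.5, 51.8, 56.8 and 59.2 in FD libraries. Only the lowest fed value, 58.7, fell inside the FD range, and the log2 fold change was -0.69 ± 0.20 SE (q = 0.112). Gfra4 was the 1 member of 8 without overlap in POMC neurons, where 2.35% of all genes had none. Its fed libraries had 14.9, 15.6, 15.6, 17.8 and 23.2 normalized CPM and its FD libraries 6.78, 7.74, 7.83, 9.79 and 9.80, with a log2 fold change of -1.05 ± 0.54 SE (q = 0.437). In the 1 µl spike-in set, which held 3 libraries of each condition, the ranges were 15.6 to 17.8 and 7.74 to 9.80. Ntrk3, Ret, Bdnf and Ngfr had log2 fold changes of -0.06 ± 0.19, -0.25 ± 0.47, -0.80 ± 1.37 and 0.55 ± 1.67 SE with q from 0.888 to 0.947. The last 2 rest on few counts. Ngfr lay at or under 3 counts in 3 of 5 fed and 3 of 5 FD POMC libraries, and Bdnf in 0 of 5 fed and 2 of 5 FD POMC libraries.

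The test of the difference between the cell types' responses called 2 of 8 members, against 6.71% of all genes, and the stricter rule called 1, Gfra1, against 4.55%. The response of Gfra1 was higher in AGRP than in POMC neurons by 2.63 ± 0.41 SE on the log2 scale (q = 1.10e-04), and that of Ntrk2 by 0.87 ± 0.23 SE (q = 0.0172). Both passed in all 21 fits that left out a library, but not with ERCC scaling (3.51 ± 1.15 SE, q = 0.133 for Gfra1 and 1.79 ± 1.09 SE, q = 0.596 for Ntrk2). Gfra2 had a difference of 0.87 ± 0.28 SE (q = 0.0527), and it passed with DESeq2, without the count filter and with age cohort as a term in the fit. For Ret the difference was 1.59 ± 0.66 SE (q = 0.16), for Ntrk3 0.40 ± 0.26 SE (q = 0.426) and for Gfra4 -0.31 ± 0.73 SE (q = 0.871).

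In fed mice the cell types differed in 4 of 8 members, against 7.57% of all genes. In AGRP neurons 2 members were higher, as were 3.33% of all genes, and 2 were lower, as were 4.24%, and the stricter rule called 2, Gfra1 and Gfra2, against 4.02%. Gfra2 was 4.69-fold higher in AGRP neurons (366 ± 33.6 against 77.9 ± 15.2 normalized CPM, log2 fold change 2.23 ± 0.21 SE, q = 3.06e-09), and Ntrk3 was 1.86-fold higher (120 ± 20.9 against 64.5 ± 12.4, 0.90 ± 0.19 SE, q = 0.00203). Gfra1 was 7.44-fold lower in AGRP neurons (19.03 ± 8.77 against 142 ± 37.6 normalized CPM, -2.90 ± 0.31 SE, q = 5.48e-08), and Ret was 5.89-fold lower (2.98 ± 0.755 against 17.6 ± 8.81, -2.56 ± 0.50 SE, q = 7.20e-04). These 4 genes were also the members without overlap between the cell types, compared with 8.93% of all genes, and all 4 calls held with any library left out, whereas ERCC scaling gave log2 fold changes of similar size with wider errors, -2.59 ± 0.85 SE for Gfra1 (q = 0.0881), 2.34 ± 0.82 for Gfra2 (q = 0.137), -2.43 ± 1.02 for Ret (q = 0.365) and 0.95 ± 0.80 for Ntrk3 (q = 1). Ntrk2 overlapped, with 505 to 579 normalized CPM in AGRP and 364 to 605 in POMC neurons (log2 fold change 0.14 ± 0.16 SE, q = 0.73).

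In FD mice 3 of 8 members differed between the cell types, against 18.6% of all genes. All 3 were higher in AGRP neurons, as were 9.28% of all genes while 9.27% were lower, and all 3 met the stricter rule, as did 8.11% of all genes. Gfra2 was 8.57-fold higher (415 ± 137 against 48.4 ± 11.6 normalized CPM, log2 fold change 3.10 ± 0.21 SE, q = 3.26e-12), Ntrk3 2.47-fold (152 ± 21.1 against 61.7 ± 13.4, q = 5.04e-06) and Ntrk2 2.01-fold (911 ± 206 against 453 ± 81.4, q = 1.90e-05). Gfra1 overlapped, with 76.5 to 168 normalized CPM in AGRP and 73.8 to 155 in POMC neurons (log2 fold change -0.26 ± 0.28 SE, q = 0.576). Ret had 5.41 to 10.7 against 6.50 to 30.7 normalized CPM (log2 fold change -0.97 ± 0.45 SE, q = 0.141). With ERCC scaling the Ntrk2 difference was larger but its error wider (log2 fold change 2.19 ± 0.79 SE, q = 0.0683). The uncalled differences of Gfra1 and Ret turned positive, while Gfra2 and Ntrk3 kept their calls. That scaling moved the median log2 fold change of all tested genes as well, from -0.0038 to 1.10. These comparisons use the same FD and fed libraries as those above and are not independent of them.

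**Figure D4:**
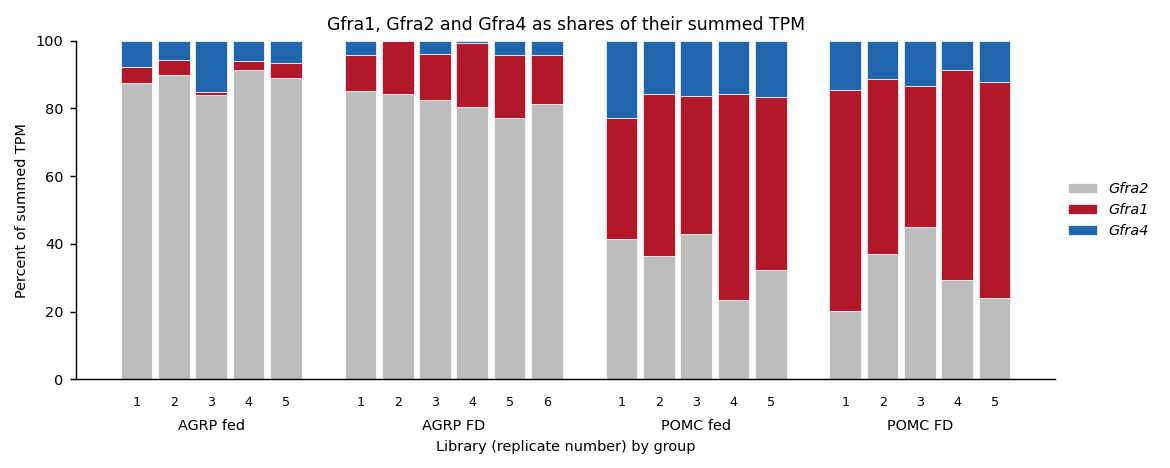
Gfra2, Gfra1 and Gfra4 as percent of their summed TPM (vertical axis) in each library, grouped by cell type and condition, with replicate numbers under the bars. The Gfra1 share is 1.11 to 4.71% in fed AGRP and 10.6 to 18.9% in FD AGRP libraries, and 35.9 to 65.2% in POMC libraries.

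Shares within a library do not depend on how libraries are scaled to each other, and 4 such shares were computed after the gene values had been seen, so they are not independent of the tests above. Gfra1 made up 1.11, 2.43, 4.35, 4.62 and 4.71% of the summed Gfra1, Gfra2 and Gfra4 TPM in the fed AGRP libraries and 10.6 to 18.9% (median 15.1%) in the FD libraries. The means were 3.44 ± 1.61% and 15.3 ± 3.13% (two-sided exact permutation test, p = 0.00433, the smallest that 5 against 6 libraries allow, and 0.0139 adjusted over the 16 tests of 4 shares). In POMC neurons the Gfra1 share was 47.2 ± 9.60% in fed and 56.9 ± 9.97% in FD libraries (exact permutation p = 0.151, adjusted 0.186).

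The Gfra4 share was lower in FD libraries of both cell types. It was 8.21 ± 3.88% in fed and 2.87 ± 1.94% in FD AGRP neurons (exact permutation p = 0.00433, adjusted 0.0139) and 17.4 ± 2.97% in fed and 11.9 ± 2.22% in FD POMC neurons (exact permutation p = 0.00794, adjusted 0.0139). Gfra2 held the rest, 88.3 ± 2.86% and 81.8 ± 2.81% in fed and FD AGRP neurons and 35.3 ± 7.87% and 31.2 ± 9.95% in fed and FD POMC neurons. Ret TPM amounted to 0.339 ± 0.0808% of the summed co-receptor TPM in fed and 0.739 ± 0.247% in FD AGRP neurons (exact permutation p = 0.00866, adjusted 0.0139), and to 3.77 ± 2.03% and 4.38 ± 2.91% in POMC neurons (p = 0.722, adjusted 0.77). The share of Ntrk2 in the summed Ntrk2 and Ntrk3 TPM was 56.8 ± 5.40% in fed and 62.8 ± 6.08% in FD AGRP neurons (exact permutation p = 0.108, adjusted 0.144), and 68.4 ± 6.50% and 67.7 ± 7.78% in POMC neurons (p = 0.881).

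The gene lists from here on were also written with earlier results of these data known. Of 10 other ligands and receptors of the 2 families, 3 passed the count filter. Gdnf, the main ligand of GFRα1, had 0 counts in all 5 fed AGRP libraries and 0, 3, 24, 55, 57 and 119 counts in the FD libraries. Gdnf passed the count filter only through 4 FD AGRP libraries, the group where it was high, so its test is not that of a gene admitted on all groups. Its q values (0.0162 for FD against fed AGRP neurons) are therefore not taken as support, and the counts are a description. The mean in FD AGRP neurons was 1.90 ± 1.60 normalized CPM, at least 12.1-fold above a floor of 3 counts in each fed library. Of the 6 FD libraries, 4 lay above that floor. Gdnf in POMC neurons had 0, 0, 1, 5 and 17 counts in fed and 0, 0, 0, 0 and 3 counts in FD libraries. For the difference of the cell types' responses in Gdnf, q was 0.0224, with the same limit from the filter. It was 0.0642 with limma-voom and 0.0591 without the fed POMC library numbered 1.

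Most of the other genes of these families had few counts. Gfra3 had 0 counts in all 21 libraries, and Nrtn, the ligand of GFRα2, had at most 2 counts. Ntf5, Pspn and Gdf15 missed the filter with at most 7, 47 and 8 counts. Gfral, the receptor of GDF15, had 0 counts in all 5 fed AGRP libraries while 3 of 5 fed POMC libraries, through which it mainly passed the count filter, lay above the floor. The fed POMC mean of 1.05 ± 1.04 normalized CPM was at least 6.67-fold above the mean floor of the fed AGRP libraries. Because Gfral was admitted mainly through the group where it was high, its q values are not taken as support. Between the cell types in fed mice q was 0.038. It stayed under 0.05 in 7 of 10 alternative settings and in 3 of 10 fits that left out a library. For the difference of responses q was 0.0331. That q stayed under 0.05 in 5 of 9 alternative settings and in 11 of 21 fits that left out a library. Artn had 5 to 37 counts in fed AGRP libraries and passed the test in none of the 5 comparisons.

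Genes for sorting and cleavage of pro-BDNF, the precursor protein, rose with food deprivation in AGRP neurons in 4 of 15 tested cases and fell in 0, where 5.87% of all genes rose and 4.43% fell, with a median log2 fold change of 0.27 against -0.02 for all genes. Sorcs1, a sorting receptor of the sortilin family, rose from 8.95 to 127 normalized CPM (log2 fold change 3.82 ± 0.30 SE, q = 6.50e-10), Pcsk1, a prohormone convertase, from 75.9 to 245 (1.69 ± 0.23 SE, q = 6.52e-06) and Cpe, carboxypeptidase E, from 501 to 1192 (1.25 ± 0.26 SE, q = 0.00145). Pcsk1 and Cpe also process the neuropeptides of these cells. In POMC neurons, where 0.182% of all genes rose and 0.194% fell, 1 of 15 rose, Sorcs3 (14.4 to 40.0 normalized CPM, 1.47 ± 0.17 SE, q = 7.92e-06), and Sorcs3 was higher in fed AGRP than in fed POMC neurons (240 against 14.4 normalized CPM, q = 8.82e-16). In fed mice 1 gene of this list was higher and 5 were lower in AGRP neurons, as were 3.33% and 4.24% of all genes, among them Sorcs1 (8.95 against 88.3, q = 1.88e-09) and Sorcs2, which also partners p75 (0.291 against 17.1, q = 1.72e-04).

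Of 17 partners and adaptors of p75, 1 rose in FD AGRP neurons, Arhgdia (353 to 562 normalized CPM, 0.67 ± 0.21 SE, q = 0.0364), and 0 fell, a share near the 5.87% of all genes that rose. In POMC neurons 0 of the 17 were called, and 0.375% of all genes were. In fed mice 0 of these 17 were higher and 4 were lower in AGRP than in POMC neurons (3.33% and 4.24% of all genes), among them Lingo1 (18.4 against 49.7, q = 0.00602) and Bex3, listed as Ngfrap1 (217 against 350, q = 0.00757). In FD mice 3 were higher and 2 lower (9.28% and 9.27% of all genes), led by Maged1 (3010 against 1350, q = 1.51e-06).

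Downstream of the kinases, 3 of 45 tested adaptors and effectors of Trk and RET rose in FD AGRP neurons and 2 fell, close to the shares of all genes (5.87% and 4.43%). The regulatory subunit Pik3r1 of phosphoinositide 3-kinase rose from 83.1 to 204 normalized CPM (log2 fold change 1.29 ± 0.23 SE, q = 3.42e-04) and the adaptor Irs2 from 75.1 to 145 (0.95 ± 0.24 SE, q = 0.00999). These genes also serve insulin and other receptors. The 2 that fell, named after their values were seen, were the kinase Rps6ka5 (71.7 to 38.6 normalized CPM, q = 0.0231) and the adaptor Shc2 (56.2 to 34.2, q = 0.0422). In POMC neurons 1 rose, the kinase Rps6ka5 (18.8 to 46.5, 1.31 ± 0.28 SE, q = 0.0207), and 0 fell (0.182% and 0.194% of all genes). In fed mice 1 was higher and 4 lower in AGRP neurons (3.33% and 4.24% of all genes), led by Rps6ka5 (71.7 against 18.8, q = 1.09e-05), Gab2 (70.9 against 162, q = 6.10e-04) and Shc3 (3.99 against 19.4, q = 0.00172).

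Genes listed as negative regulators and partners of Trk and RET rose in 5 of 21 tested cases in FD AGRP neurons and fell in 0 (5.87% and 4.43% of all genes), with a median log2 fold change of 0.21. These included the endocytic adaptor Eps15 (111 to 207 normalized CPM, q = 0.00197), the ubiquitin ligase Cbl (75.2 to 144, q = 0.00397) and the receptor phosphatase Ptprz1 (281 to 551, q = 0.00397). In POMC neurons 0 of the 21 were called (0.375% of all genes). In fed mice 1 was higher and 3 were lower in AGRP than in POMC neurons (3.33% and 4.24% of all genes), led by Slitrk5, a membrane partner of TrkB (9.47 against 109, q = 2.73e-07).

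Of 30 tested regulators of Bdnf transcription, 4 rose and 2 fell in FD AGRP neurons (5.87% and 4.43% of all genes). The immediate-early gene Egr1 rose from 216 to 711 normalized CPM (1.72 ± 0.22 SE, q = 4.71e-06) and the cAMP-responsive factor Crem from 16.9 to 65.0 (1.94 ± 0.38 SE, q = 8.96e-04), whereas the calcium-dependent kinase Camk2a fell from 379 to 205 (-0.89 ± 0.17 SE, q = 6.37e-04). In POMC neurons 0 rose and 1 fell (0.182% and 0.194% of all genes), Camk4 (155 to 82.9, q = 0.0233). Between the cell types in fed mice 3 were higher and 1 lower in AGRP neurons (3.33% and 4.24% of all genes), led by Mef2c (26.9 against 2.53, q = 3.91e-04). Bdnf itself passed in none of the 5 comparisons.

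The genes most like each member over the 21 libraries are given as a description, by Pearson's r of log2(normalized CPM + 1) among tested genes whose mean passed 20 CPM in any of the groups. Ntrk2 was closest to Ptprz1 (r = 0.92) and Gatsl2 (r = 0.92), with r of 0.76 and 0.78 after subtracting the group means. Gfra1 was closest to the neuromedin U receptor Nmur2 (r = 0.87) and the prolactin receptor Prlr (r = 0.86), with 0.41 and 0.47 within groups. Gfra2 was closest to Prune2 and Flrt3 (r = 0.97 and 0.96, within groups 0.45 and 0.24), and Ntrk3 to Atp7a and Col6a1 (both r = 0.91, within groups 0.45 and 0.30). Ret was closest to Onecut2 and Slitrk5 (r = 0.82 and 0.81), Gfra4 to Tmem201 and Gng7 (r = 0.82 and 0.80), Bdnf to Etf1 and Agpat6 (both r = 0.75) and Ngfr to Snx27 and Nudt16 (r = 0.70 and 0.66). The points are libraries of the same 4 groups, and each r compares genes of the same libraries.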

How the data were processed

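Gene counts and TPM were used as the authors deposited them. Per the study's methods and the labels, RNA of the sorted cells was amplified without molecular identifiers after ERCC spike-ins were added, and sequenced as single-end reads. The submitters' notes name cutadapt 1.7.1, Bowtie2 2.1.0, STAR 2.4.0i, HTSeq 0.6.1p1 and mm10. The authors made the raw counts per gene with HTSeq without strand, and the authors made the TPM values per gene as shares after correction for length. Reads on no gene, together with reads that fitted more than 1 gene, were 27.2 to 56.3% of the sum of these reads and the gene counts. They stayed out of library totals. Floors and depths cover counting error only.

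Each library is 1 mouse, grouped by its labels. Genes with over 1 CPM in at least 3 of 21 libraries (16513) were tested with edgeR 4.0.16 (R 4.3.3, quasi-likelihood, TMM, 4 groups in 1 fit, no covariate, Benjamini-Hochberg adjustment, two-sided). SE is the absolute log2 fold change divided by the square root of F, which is approximate. Alternatives were limma-voom (the study's own kind of test, here limma 3.58.1), DESeq2 1.42.0, other scalings and blocks, no filter and leaving out each library. Shares used exact permutation tests (scipy 1.17.1), and Python 3.11.15 and matplotlib 3.10.9 drew the figures.

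The members and lists were chosen with earlier results of these data known. All 9 members are named, and of each list at most the 3 genes with the smallest q per comparison, with exceptions stated. For each tested member the 2 most correlated genes are named. Replicate numbers did not pair the mice. Some genes of these lists are counted but not reported here by name.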

Additional observations from a re-analysis of the deposited data

Results flagged for a closer look

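Of 31 groups of 5 or 6 libraries tested for a library far from the others, 3 were marked, where chance marks about 1 in 20. Bdnf reached 4.37 normalized CPM in the fed POMC library numbered 2, against 0.822 in the nearest of that group. Gfra1 reached 168 normalized CPM in the FD AGRP library numbered 2, against 102 in the nearest, and without it the log2 fold change stayed within 2.20 to 2.57, the range over all single omissions. Gfra4 reached 27.4 normalized CPM in the fed AGRP library numbered 3, against 13.4 in the nearest.

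The response to food deprivation differed between AGRP and POMC neurons, by the test of the difference itself in edgeR, for Gfra1 (2.63 ± 0.41 SE on the log2 scale, q = 1.10e-04) and for Ntrk2 (0.87 ± 0.23 SE, q = 0.0172).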

How the results depend on the processing

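Over the alternatives other than leaving out a library, 364 of the members' log2 fold changes kept their direction and their side of the threshold, 9 lost and 7 gained a call and 6 turned. Counts of members called moved by 1 with limma-voom (AGRP FD against fed, 3), with DESeq2 and without the filter (difference of responses, both 3), with age cohort as a block (cell types in FD mice, 4, and difference of responses, 3) and with ERCC scaling (cell types in FD mice, 2). Of all tested genes these settings called, in the same order, 2115, 1596, 1245 (of 24900), 2495, 1213 and 1117. The number of members called in AGRP FD against fed was 4 with DESeq2, which called 2177 of all 16513 genes against 1700 in the main fit. With ERCC scaling the members called were 0 in AGRP FD against fed, 0 between the cell types in fed mice and 0 for the difference of responses. Of all 16513 genes ERCC scaling called 97, 297 and 119 in these comparisons, against 1700, 1250 and 1108 in the main fit. This scaling moved the median change over all tested genes (log2) to -1.11 in POMC neurons, 1.10 between the cell types in FD mice and 1.04 for the difference. It also turned the FD contrast of the cell types for Ret (0.029), Gfra1 (0.92) and Gfra4 (0.96), the difference of responses for Gfra4 (1.26) and Ngfr in POMC neurons (-0.042), none of them called before or after, and the cause was not tested. A replicate block turned Ngfr in POMC neurons (-0.17) and changed no count of members by over 1.5 times. Same-numbered libraries come from different mice and their deviations correlated at -0.19 to 0.12 over 30 pairs (2 over 0.1), so the numbers were not taken as pairs.

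With single libraries left out, the members called were 2 in AGRP FD against fed, 0 in POMC neurons, 4 and 3 between the cell types in fed and FD mice, and 2 to 3 for the difference of responses. Uncalled log2 fold changes that turned ranged from -1.18 to 0.47 (Bdnf), -0.13 to 0.058 (Ntrk3) and -0.70 to 0.013 (Ret) in POMC neurons, from -0.0095 to 0.26 for Gfra2 in AGRP neurons and from -0.55 to 0.019 for the Gfra4 difference of responses. In POMC neurons the change in the Ntrk2 share ranged from -3.30 to 1.73 percentage points and that in the Ret ratio from -0.658 to 1.32. The Gfra2 difference of responses passed without any 1 of the libraries FD AGRP 4 (q = 0.0428), FD AGRP 5 (q = 0.0357), fed POMC 4 (q = 0.0351) or FD POMC 3 (q = 0.0439). The exact permutation p of the Gfra1 share in POMC neurons fell to 0.0317 without FD POMC 3, and that of the Ntrk2 share in AGRP neurons to 0.0476 without fed AGRP 2. Ngfr passed between the cell types in FD mice with age cohort as a block (log2 fold change -6.69, q = 0.0292), on counts mostly at or under the floor.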
